A study of Homo sapiens with 17 samples.

Results

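The comparison sets untreated INTS1-AID cells against untreated parental cells, and so describes how the tagged line stood before any auxin was given. Its members were chosen by their labels alone: 3 INTS1-AID libraries and 3 parental libraries, 6 of the 17 libraries of the series. Total RNA was freed of ribosomal RNA and sequenced with its strand kept. Both groups are HEK293T cells with no treatment; the INTS1-AID cells carry a homozygous miniAID tag on INTS1, and the genotype of the parental cells is given as not applicable. The labels do not say whether the tagged line is 1 clone, nor which other alleles the degron system brought with it.

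HEK293T cells derive from human embryonic kidney cells transformed with adenovirus DNA and also carry the SV40 large T antigen and are aneuploid. INTS1 is a scaffold subunit of Integrator, the complex that cleaves nascent transcripts of RNA polymerase II and forms the 3′ ends of small nuclear RNAs. The miniAID tag is a short degron that lets auxin direct the tagged protein to degradation.

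The authors' normalized counts are given throughout, which are counts divided by a factor for each library. Reads in genes numbered between 26294938 and 39321998 per library. A gene was called at a Benjamini-Hochberg adjusted p under 0.05 in limma's test on log2(normalized count + 1), over the 13293 genes with a mean of at least 10; log2 changes are INTS1-AID over parental. Parental library 3 stood apart. Its deviation from the parental mean rose with the GC content of the gene (Spearman's rho 0.71 over 13281 genes). Parental libraries 1 and 2 had -0.53 and -0.68, but deviations from a shared mean are not independent of each other. Values for the INTS1-AID libraries were -0.13 to 0.25, and are not to be read as deviations from the parental mean. Results are therefore given with and without it, and fits with each library's GC trend removed are among the alternatives. Beyond these fits, the part of its GC trend in the results was not tested. All 14 genes of the embryonic kidney, adrenal and neural list used to check the identity of HEK293T cells passed the filter, with a summed normalized count of 42658 to 44104 in INTS1-AID libraries and 36348 to 39122 in parental ones. Of the marker lists of other cell types, 3 of 10 blood genes, 1 of 10 fibroblast genes, 2 of 10 colon genes and 2 of 10 endothelial genes passed it, and limma called 0 of these 8. At an unadjusted p under 0.05 there was 1, and edgeR and DESeq2 called 0. Their summed normalized counts were 206 to 266 in INTS1-AID and 181 to 201 in parental libraries for blood, 49.4 to 59.8 and 22.5 to 50.8 for fibroblasts, 985 to 1079 and 948 to 1185 for colon, and 698 to 723 and 776 to 1099 for endothelium; their part in the results was not tested. In bulk RNA, fewer cells with a transcript and less transcript per cell cannot be told apart.

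Genes of chromosome 5 were higher in INTS1-AID cells along the whole chromosome, at every level of expression. Of 592 tested genes of chromosome 5, 209 rose (35.3%), against 1.85% of all tested genes, and limma called 0 lower, against 0.369%. At an unadjusted p under 0.05, 3 were lower, and edgeR and DESeq2 called 0 lower. Leaving out parental library 3, 466 rose (78.7%, against 10.9% of all tested genes) and 1 fell (0.169%, against 7.41%). In 471 genes of chromosome 5 (79.6%) every INTS1-AID library lay above every parental one, beside 16% of all tested genes. The authors' deposited table gives an adjusted p under 0.05 for 363 of the 592 (61.3%, against 6.06% of all tested genes), among them all 209 in the same direction; no source used here says how these p-values were adjusted. The median log2 change was 0.52 with quartiles of 0.33 and 0.67, a ratio of 1.44, and 0.46 without parental library 3 with quartiles of 0.35 and 0.56, a ratio of 1.38. Over the other chromosomes the median was -0.01 with all libraries and also -0.01 without parental library 3.

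The number of calls, unlike the median, depended on which libraries were included. Without INTS1-AID library 1, 2 or 3 the count of called genes over the genome was 1, 3 and 4, and without parental library 1 it was 1, against 295 (2.22%; 246 higher, 49 lower) with all libraries. With parental library 2 left out it was 271 and with parental library 3 left out 2432 (18.3%). DESeq2 called 519 higher and 305 lower, and removal of each library's GC trend gave 707 higher and 396 lower. The median of chromosome 5 stayed between 0.46 and 0.54 whichever library was left out.

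Library by library, chromosome 5 genes had a median log2 level, relative to the parental mean and less the median of the other chromosomes, of 0.51, 0.51 and 0.53 in INTS1-AID libraries 1, 2 and 3, and 0.04, 0.06 and -0.11 in parental libraries 1, 2 and 3. The groups did not overlap, and parental library 3 was the lowest. Chromosome 5 gave 5.02%, 5.04% and 5.07% of all normalized counts in the INTS1-AID libraries, against 3.75%, 3.79% and 3.56% in the parental ones. No other chromosome had a median log2 change outside -0.11 (chromosome 19) to 0.05 (chromosome 4), and without parental library 3 these 22 medians lay between -0.05 and 0.01.

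**Figure D1:**
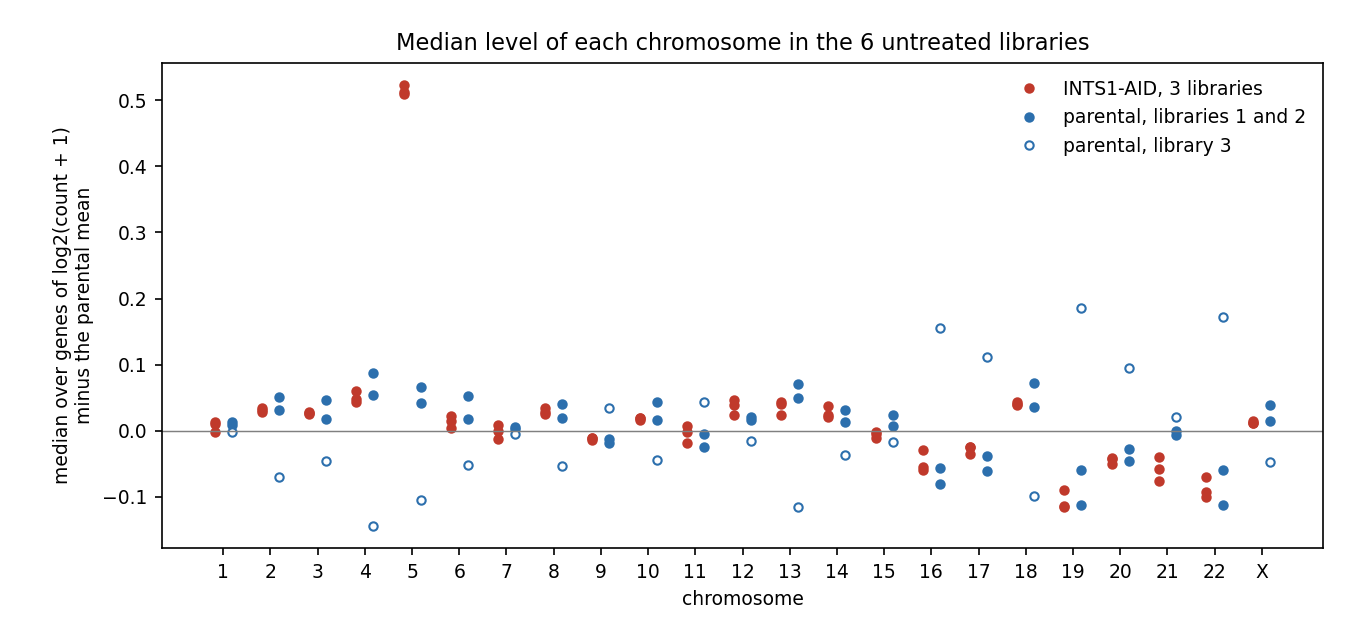
The horizontal axis gives the chromosome and the vertical axis the median over its tested genes of log2(normalized count + 1) minus the mean of the 3 parental libraries, 1 point a library. On chromosome 5 the 3 INTS1-AID libraries lie near 0.52, above all parental libraries; elsewhere both groups lie near 0, and parental library 3 (open circles) lies away from the other parental libraries, most on chromosomes 4, 16, 19 and 22.

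Both arms took part. The 105 tested genes of the short arm had a median log2 change of 0.44 (35 rose) and the 487 of the long arm one of 0.54 (174 rose). When parental library 3 was left out these medians were 0.40 and 0.47. In windows of 10 Mb by gene start, the 18 windows of chromosome 5 with at least 10 tested genes had medians between 0.28 and 0.66, and between 0.31 and 0.52 without parental library 3. The 271 such windows of the other chromosomes ran from -0.20 to 0.20, and from -0.20 to 0.12 without that library. None of these 18 windows reached down to the highest of the others. The lowest medians were 0.29 in the window from 0 to 10 Mb (32 genes, 0.35 without parental library 3) and 0.28 in that from 170 to 180 Mb (77 genes, 0.35 without it). These 2 windows are rich in GC, with a median GC content of 53.4% and 55.1%, against 42.0% in the window from 60 to 70 Mb, whose median was 0.66 (0.50 without parental library 3). With each library's GC trend removed, the medians of these windows were 0.35, 0.34 and 0.53. The window from 180 to 190 Mb, with a GC content of 54.4%, had a median of 0.44 (0.48 without parental library 3). Without parental library 3 the lowest of the 18 was the window from 10 to 20 Mb, at 0.31. The part of GC content was not tested.

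**Figure D2:**
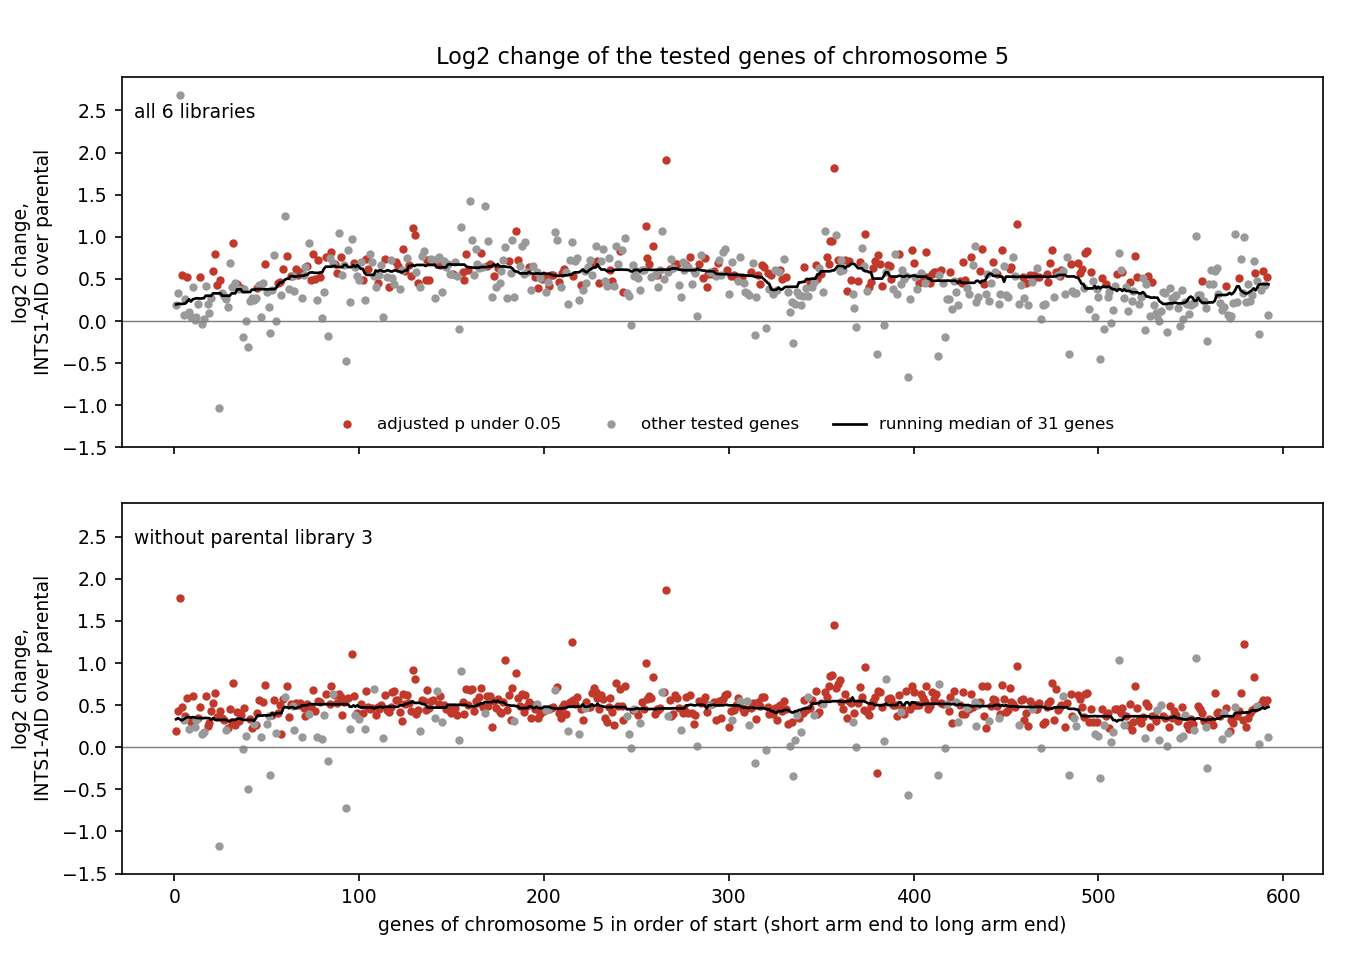
Each point is 1 of the 592 tested genes of chromosome 5, placed by its order of start along the horizontal axis and by its log2 change (INTS1-AID over parental) on the vertical axis, with all 6 libraries above and without parental library 3 below. The running median stays above 0 along the whole chromosome, sags toward both ends, and is flatter without parental library 3; called genes (red) number 209 above and 467 below.

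The medians were close across kinds of gene and levels of expression. The 551 protein-coding genes of chromosome 5 had a median log2 change of 0.53 and the 32 long non-coding RNA genes one of 0.46 (0.46 and 0.49 without parental library 3). Split in 3 near-equal classes by mean normalized count, the medians were 0.45, 0.54 and 0.54 from the lowest class to the highest, and 0.45, 0.46 and 0.47 without parental library 3. The share of genes called rose with the level, from 10.6% over 35.2% to 60.1%, and all 198 genes of the highest class lay above 0. Split in 3 classes by GC content, the medians were 0.61, 0.54 and 0.31 from low to high GC with all libraries, and 0.48, 0.48 and 0.41 without parental library 3, so that the spread along GC narrowed when that library was left out. In that case 83.1% of the genes lay between 0.25 and 0.75 on the log2 scale, against 5.29% of genes on other chromosomes. The SD over genes was then 0.24 on chromosome 5 and 0.23 elsewhere.

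A few called genes of chromosome 5 went well beyond the median. ST8SIA4, a sialyltransferase that makes the polysialic acid of the neural cell adhesion molecule (ENSG00000113532, chr5:100806933-100903282, hg38), had 192, 171 and 191 normalized counts in INTS1-AID libraries 1 to 3, against 46.2, 53.4 and 46.1 in parental libraries 1 to 3. The groups lay far apart, and the log2 change was 1.91 (SE 0.14, limma adjusted p = 0.00499), and 1.87 without parental library 3. CDKL3, a kinase of the cyclin-dependent kinase-like family (ENSG00000006837, chr5:134308001-134367171), had 90.8, 96.8 and 85.5 in INTS1-AID cells, against 37.6, 28.4 and 14.6 in parental cells, of which library 3 was the lowest. Its log2 change was 1.82 (SE 0.32, limma adjusted p = 0.034), and 1.45 without parental library 3. Next among called genes came the zinc finger gene ZNF300 (log2 change 1.15), the glutaredoxin gene GLRX (1.13), the polo-like kinase gene PLK2 (1.11), ENC1 (1.07), the proteoglycan gene SPOCK1 (1.04) and RAB3C, a GTPase of regulated secretion (1.02). All 6 kept an adjusted p under 0.05 in limma without parental library 3, where RAB3C had the smallest log2 change at 0.81.

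The last of the 10 largest rises among called genes were SKP1, the adaptor of SCF ubiquitin ligases, and PPP2CA, which encodes a catalytic subunit of the phosphatase PP2A, which neighbour each other and CDKL3 on the long arm. SKP1 had 4284, 4427 and 4631 normalized counts in INTS1-AID cells, against 2353, 2592 and 1980.1 in parental cells (log2 change 0.95, 0.85 without parental library 3). PPP2CA had 6331, 6240.1 and 6564 in INTS1-AID cells, against 3496, 3545 and 2899 in parental cells (log2 change 0.95, 0.86 without parental library 3). The 4 tested genes on either side of these 3 were looked at after these values were seen. Of these 8, 7 lay above the median of the chromosome and 3 were called: VDAC1 (0.77), TCF7 (0.68) and CDKN2AIPNL (0.72). C5orf15 (1.07), UBE2B (1.03), SAR1B (0.73), JADE2 (0.59) and, below that median, FSTL4 (0.35) were not called. Leaving out parental library 3, the 8 had log2 changes of 0.52 (FSTL4) to 0.80 (JADE2), and FSTL4 alone was not called. In GENCODE v29, exons of SKP1, PPP2CA and CDKL3 share bases with those of read-through or neighbouring genes on the same strand (AC104109.3 and AC104109.4), so reads there may be divided among them. Of the 9 other PP2A core and B subunit genes tested, all on other chromosomes, limma called 0, with 0 at an unadjusted p under 0.05 and 0 by edgeR and DESeq2, and log2 changes of -0.10 to 0.19. The list does not hold every B subunit gene: PPP2R2C on chromosome 4, named after its values were seen, fell (log2 change -0.46, limma adjusted p = 0.0337; -0.44 without parental library 3).

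A minority of genes on chromosome 5 did not lie above the parental level. Of the 592, 29 had a log2 change under 0, and 18 without parental library 3. They were mostly low genes: their median of mean normalized counts was 55.4, against 1068 for the rest. In 4 of them (0.676% of the 592, against 15.3% of tested genes on the other chromosomes) every INTS1-AID library lay below every parental one. These 4 are named here after their values were seen. These were the homeobox genes IRX4 and TLX3, the GDNF family receptor gene GFRA3 and the zinc finger gene ZNF608. GFRA3 had 280.2, 257 and 254 normalized counts in INTS1-AID cells, against 344, 307 and 396 in parental cells (log2 change -0.40, limma adjusted p = 0.164). It was the 1 gene of chromosome 5 called lower without parental library 3 (log2 change -0.30, limma adjusted p = 0.0481). IRX4 was at 7.1, 5.04 and 11.7 in INTS1-AID cells and at 18.3, 18.1 and 13.5 in parental cells (log2 change -1.03, limma adjusted p = 0.207). TLX3 and ZNF608 had log2 changes of -0.44 and -0.17, neither called.

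Many complexes draw a few of their subunits from chromosome 5. In the lists looked at those members had higher median log2 changes than the members on other chromosomes, a difference that was not tested. Counts of called members on chromosome 5 are to be read against the 35.3% of all its tested genes called higher. Without parental library 3 that share was 78.7%. Of the 4 cytosolic ribosomal protein genes on chromosome 5, RPS14 and RPS23 rose. RPS14 had 21670.2, 22121 and 23789 normalized counts in INTS1-AID cells, against 13746, 13914 and 16637 in parental cells (log2 change 0.61, 0.70 without parental library 3). RPS23 had 18035, 19307 and 20210.0 in INTS1-AID cells, against 11207, 12317 and 12499 in parental cells (log2 change 0.68, 0.71 without parental library 3). RPL37 and RPL26L1 had log2 changes of 1.05 and 0.61 that did not pass the test, and passed it at 0.64 and 0.40 without parental library 3. RPL37 was at 4250.5 in that library, against 9513 and 10487 in the other parental libraries. Of the 76 ribosomal protein genes elsewhere limma called 0, with 39 higher at an unadjusted p under 0.05, 0 by edgeR and 6 by DESeq2; their median log2 change was 0.23. When parental library 3 was left out, 36 of those 76 were called higher, at a median of 0.16, against 7.73% of all tested genes outside chromosome 5.

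In mitochondria, 4 of 6 respiratory chain genes on chromosome 5 rose: the complex I genes NDUFA2 (0.82), NDUFS4 (0.74) and NDUFS6 (0.43) and the complex III gene UQCRQ (0.67). COX7C of complex IV and SDHA of complex II had log2 changes of 0.85 and 0.34 and did not pass the test. All 6 passed without parental library 3, with a median of 0.59, beside 78.7% of all tested genes of chromosome 5. The 55 members on other chromosomes had a median of 0.17 with 0 called by limma, edgeR and DESeq2 (7 at an unadjusted p under 0.05). Without parental library 3 their median was 0.12 and 22 were called higher, against 7.73% of all tested genes outside chromosome 5. Of 5 mitochondrial ribosomal protein genes on chromosome 5, MRPL22, MRPL36, MRPS27 and MRPS30 rose, with log2 changes of 0.62 to 0.79. MRPS36 had 796, 787 and 881 normalized counts in INTS1-AID cells, against 469, 558 and 107 in parental cells. Its value in parental library 3 lay far below the others, and its log2 change of 1.43 (limma adjusted p = 0.241) was 0.68 without that library, where it passed the test. The 74 other members had a median of 0.10, with 0 called by limma and edgeR, 1 by DESeq2 and 6 at an unadjusted p under 0.05. Without parental library 3, 10 of these were called higher, against the same 7.73%.

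All 5 aminoacyl-tRNA synthetase genes on chromosome 5 rose, beside 35.3% of all its tested genes, and 78.7% without parental library 3. They are TARS1 (0.77), LARS1 (0.59), RARS1 (0.58), HARS2 (0.58) and HARS1 (0.56), and each kept its call without parental library 3, at log2 changes of 0.46 to 0.72. TARS1, which charges the tRNA of threonine, had 16067, 15912 and 16178 normalized counts in INTS1-AID cells, against 9356, 10089 and 8800.2 in parental cells. The 35 synthetase genes elsewhere had a median of 0.14 (0.06 without parental library 3), and limma called 0 of them, edgeR 0 and DESeq2 2, with 10 at an unadjusted p under 0.05. Without parental library 3, 14 were called higher and 2 lower, against 7.73% and 7.75% of all tested genes outside chromosome 5. In the list for the nuclear exosome and its cofactors, the helicase gene MTREX rose (0.65, 0.56 without parental library 3). The poly(A) polymerase genes TENT2 (0.58) and TENT4A (0.16) were not called by limma with all libraries. Without parental library 3 both were called, at 0.39 and 0.22. TENT2 was in the list as drawn up but is not an established cofactor of the nuclear exosome. DESeq2 called TENT2 with all libraries.

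Lists of cell cycle, repair, chaperone and WNT genes also held called members on chromosome 5, to be read against the 35.3% of all its tested genes called higher and the 78.7% without parental library 3. CCNB1, the cyclin of mitotic entry, had 9472, 9429 and 9817 normalized counts in INTS1-AID cells, against 5759.6, 6075 and 4799 in parental cells (log2 change 0.79, 0.69 without parental library 3). CDC25C, the phosphatase that activates its kinase, rose by 0.78 and CCNG1 by 0.62. These are 3 of 6 cyclin and kinase list members on chromosome 5, and all 6 passed without parental library 3. Among 8 DNA repair genes there, RAD50, GTF2H2 and XRCC4 rose (0.65 to 0.71), a share near that of the chromosome, and all 8 passed without parental library 3. GTF2H2 has a near-identical copy, so its counts are uncertain. Of the chaperones, HSPA9, HSPA4 and DNAJC21 rose (0.55 to 0.66), and of the WNT pathway APC, CSNK1A1, SKP1 and TCF7. HSPA9, the mitochondrial HSP70, had 29576, 29716 and 30544 in INTS1-AID cells, against 19154, 20641 and 17366 in parental cells.

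**Figure D3:**
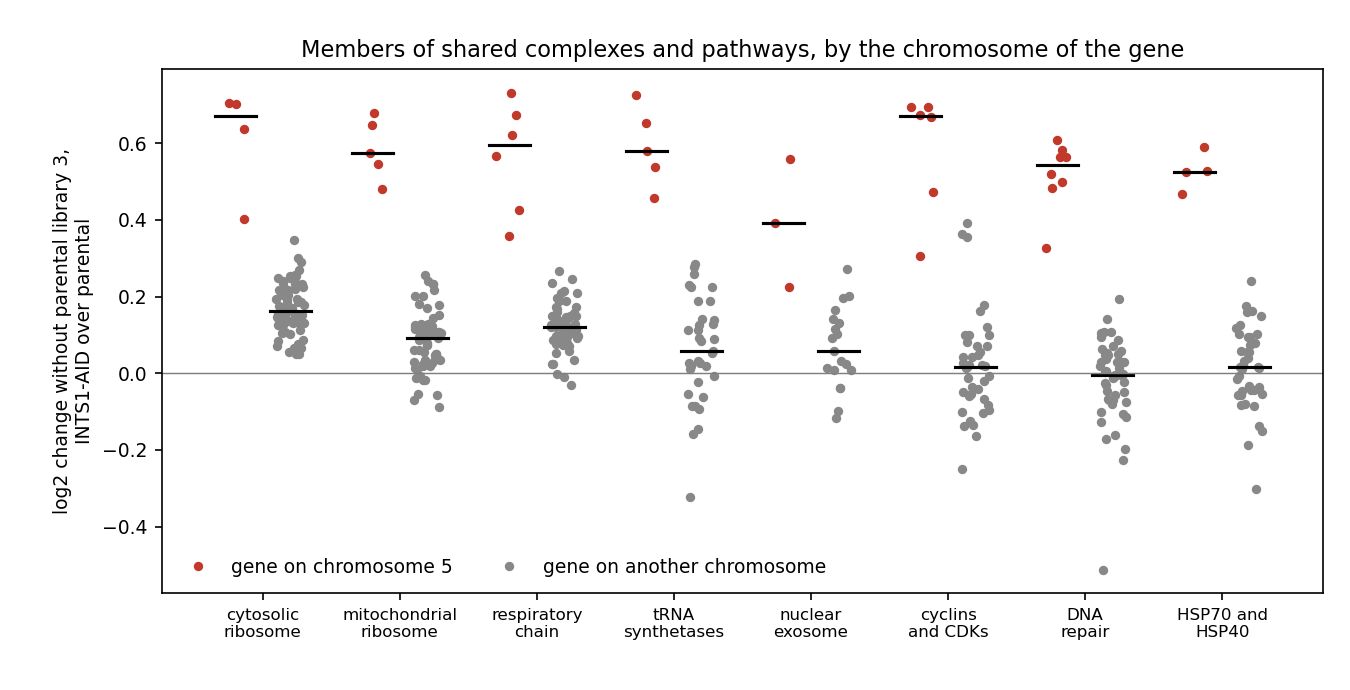
Each point is 1 tested gene of the named complex or pathway, with genes of chromosome 5 (red) left of genes of other chromosomes (grey), bars at the medians, and the log2 change without parental library 3 (INTS1-AID over parental) on the vertical axis. In the 8 lists shown the chromosome 5 genes have medians of 0.39 to 0.67, against at most 0.16 for the other members. The nuclear exosome list, at 0.39, includes TENT2, which is not an established cofactor of that complex.

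Outside chromosome 5 the differences were few and scattered. Of 12701 tested genes, 37 rose (0.291%) and 49 fell (0.386%), 82 of these 86 protein-coding, on 22 chromosomes. All 86 kept their call and direction without parental library 3, where in all 981 genes rose (7.73%) and 984 fell (7.75%). Their INTS1-AID and parental libraries did not overlap in any of the 86, and groups without overlap were found for 30.7% of all tested genes, 13.1% (higher) and 15.3% (lower) of these 12701. With counts scaled by library totals instead, 23 rose and 54 fell. The authors' deposited table gives an adjusted p under 0.05 for all 86, in the same direction, and for 443 of the 12701 (3.49%). In the authors' deposited table of the auxin series, 36 of the 86 (41.9%) have an adjusted p under 0.05 at 4 h and 49 (57%) at 12 h in either direction, beside 41.2% and 46.9% of all tested genes outside chromosome 5, so the first share is near that of all genes. The same table gives 41.6% and 48.8% for the 209 genes of chromosome 5, beside 40.4% and 43.2% of all its tested genes. By the labels, the auxin series has no-auxin libraries of its own at each time.

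NWD2, a gene with NACHT and WD repeat domains (ENSG00000174145, chr4:37244743-37449463), rose the most. It had 231, 267 and 260.1 normalized counts in INTS1-AID libraries, against 5.38, 8.61 and 4.5 in parental ones, a ratio of means of 41.0. The log2 change was 5.19 (SE 0.24, limma adjusted p = 0.000432), and 5.02 without parental library 3. NWD2 was the 1 gene that stayed called whichever library was left out. Its tested neighbours ARAP2 and RELL1 had log2 changes of 0.36 and 0.20, neither called.

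RELN came next. The gene of the extracellular guidance protein reelin (ENSG00000189056, chr7:103471784-103989658) had 64.7, 60.5 and 59.8 normalized counts in INTS1-AID cells, against 16.1, 17.2 and 12.4 in parental cells (log2 change 1.96, SE 0.21, limma adjusted p = 0.0101). MYRIP, which links RAB27A to myosin on secretory granules (ENSG00000170011, chr3:39809609-40260321), had 124, 138 and 121 in INTS1-AID cells, against 46.2, 48.2 and 36.0 in parental cells (1.54, SE 0.17, limma adjusted p = 0.0102). In both genes the INTS1-AID libraries lay close together and well above every parental library, and the log2 changes were 1.83 and 1.41 without parental library 3. CNKSR2, a scaffold of Ras signalling at synapses, had a log2 change of 1.56, the synaptic calsyntenin gene CLSTN2 1.06, PTCHD1 1.05 and the delta opioid receptor gene OPRD1 0.91.

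RAB11B, a GTPase of recycling endosomes, had 1021, 1032 and 899 normalized counts in INTS1-AID cells, against 287, 220.5 and 345 in parental cells. RAB11B was the 1 of 43 Rab GTPase genes outside chromosome 5 to pass the test, beside 0.291% higher and 0.386% lower among all tested genes there. Without parental library 3, 3 of the 43 were higher and 4 lower, against 7.73% and 7.75% of all tested genes outside chromosome 5. CPPED1, a phosphatase, had 335, 309 and 353 in INTS1-AID cells, against 94.6, 117 and 70.9 in parental cells. RAB11B and CPPED1 had log2 changes of 1.81 and 1.83, and of 1.96 and 1.65 without parental library 3. The remaining genes among the 15 largest rises were LRATD2 (1.24), the variant U1 gene RNVU1-6 (1.23), the progesterone receptor gene PGR (1.16), the glycosyltransferase gene GALNT8 (1.06), the chromodomain gene CDYL2 (1.01) and C8orf34 (0.91). In GENCODE v29, exons of RAB11B, LOXL1, PGR, MYRIP, CNKSR2, LRATD2, EYA1, C8orf34, OPRD1 and, on chromosome 5, ENC1 share bases with a gene on the opposite strand. Those of ABCB6 and GALNT8 do so with one on the same strand. The counts of all these genes are uncertain to that extent. PGR was the 1 of 32 nuclear receptor genes outside chromosome 5 that passed, beside the same 0.291% higher and 0.386% lower. Without parental library 3, 2 of the 32 were higher and 5 lower, against the same 7.73% and 7.75%. On chromosome 5 the glucocorticoid receptor gene NR3C1 rose by 0.75.

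The 15 largest falls held 4 zinc finger genes of chromosome 19. ZNF681 (ENSG00000196172, chr19:23739195-23758891) fell to 17.4, 16.1 and 10.5 normalized counts in INTS1-AID cells, against 167, 174 and 84.4 in parental cells, a ratio of means of 9.65 in favour of the parental cells. Its log2 change was -3.14 (SE 0.32, limma adjusted p = 0.0101), and -3.48 without parental library 3. ZNF91, whose protein binds SVA retrotransposons (ENSG00000167232, chr19:23338749-23395457), fell to 19.7, 14.1 and 8.2 in INTS1-AID cells, against 80.7, 83.5 and 85.5 in parental cells (log2 change -2.56, SE 0.30, limma adjusted p = 0.0126). ZNF66 (ENSG00000160229, chr19:20776304-20809995) fell to 43.4, 49.4 and 38.7 in INTS1-AID cells, against 101, 119.7 and 105 in parental cells (-1.29, SE 0.16, limma adjusted p = 0.0145). In none of the 3 did any library of 1 line reach into the range of the other, and ZNF91 and ZNF66 had log2 changes of -2.55 and -1.31 without parental library 3.

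These 3 lie in 1 cluster of zinc finger genes, most of the KRAB family, whose proteins recruit the corepressor TRIM28 and many of which silence retrotransposons. Their promoters are shown because members of such clusters arose by duplication and these 3 fell together. The sequences are RefSeq's (GRCh38.p14), 250 bases before to 50 after each start, 5′ to 3′ on the gene's strand, at chr19:23758842-23759141 (minus strand), chr19:23395422-23395721 (minus) and chr19:20776054-20776353 (plus). Capitals mark runs of at least 12 bases found in all 3.
ZNF681: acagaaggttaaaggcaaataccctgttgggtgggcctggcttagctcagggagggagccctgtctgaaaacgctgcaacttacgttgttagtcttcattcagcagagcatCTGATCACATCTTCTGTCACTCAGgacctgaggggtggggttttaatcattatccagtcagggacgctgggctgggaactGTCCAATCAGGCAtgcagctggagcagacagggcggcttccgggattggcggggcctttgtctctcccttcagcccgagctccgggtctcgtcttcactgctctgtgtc
ZNF91: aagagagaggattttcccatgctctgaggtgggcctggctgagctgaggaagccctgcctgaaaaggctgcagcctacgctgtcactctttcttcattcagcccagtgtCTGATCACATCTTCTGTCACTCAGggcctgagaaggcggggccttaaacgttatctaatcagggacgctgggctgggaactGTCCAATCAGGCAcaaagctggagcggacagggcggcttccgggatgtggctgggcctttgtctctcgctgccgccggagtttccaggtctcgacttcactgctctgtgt
ZNF66: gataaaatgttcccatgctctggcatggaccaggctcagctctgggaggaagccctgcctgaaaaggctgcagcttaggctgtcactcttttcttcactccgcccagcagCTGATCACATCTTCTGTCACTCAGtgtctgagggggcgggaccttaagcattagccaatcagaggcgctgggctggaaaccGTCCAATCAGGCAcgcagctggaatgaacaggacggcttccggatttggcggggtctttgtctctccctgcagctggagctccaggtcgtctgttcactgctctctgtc
Aligned over their whole length, ZNF681 and ZNF91 are identical in 79.2% of alignment columns, ZNF681 and ZNF66 in 76.5% and ZNF91 and ZNF66 in 80.1%. The longer run, CTGATCACATCTTCTGTCACTCAG, is found on either strand in 7 of 35116 promoters of the same length (0.0199%), all of genes named ZNF. The shorter, GTCCAATCAGGCA, is found in 24 (0.0683%), 21 of them of genes named ZNF. Both counts include these 3 promoters, from which the runs were taken, so the rarity is no test. Which other genes of the cluster carry the runs is not given here, and a link to the falls was not tested. A match of letters is a description of these windows and not a binding site.

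The other tested genes from ZNF66 to ZNF681, looked at after these falls were seen, differed less. These 12 had a median log2 change of -0.19, 11 of them below 0, and limma called 0 (6 at an unadjusted p under 0.05, 0 by edgeR and 1 by DESeq2). Without parental library 3 their median was -0.21, with 5 called lower and 0 higher, against 7.75% and 7.73% of all tested genes outside chromosome 5. The highest gene, ZNF714, was at -0.22 on the log2 scale (limma adjusted p = 0.167), and ZNF724 at -0.02. Without parental library 3 they were at -0.21 and -0.18, both called. ZNF85 had 11.1, 30.3 and 16.4 normalized counts in INTS1-AID cells, against 45.2, 39.6 and 27.0 in parental cells (limma adjusted p = 0.239), with groups that overlap. Across the 174 tested genes of chromosome 19 named ZNF and a number, limma called 5 lower and 0 higher, with a median of -0.12. The shares of all tested genes outside chromosome 5 were 0.386% lower and 0.291% higher. Without parental library 3 there were 39 lower and 2 higher, against the same 7.75% and 7.73%, with a median of -0.14. Members of this family share long stretches of sequence, so reads may be divided among them, and their levels are uncertain to that extent.

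**Figure D4:**
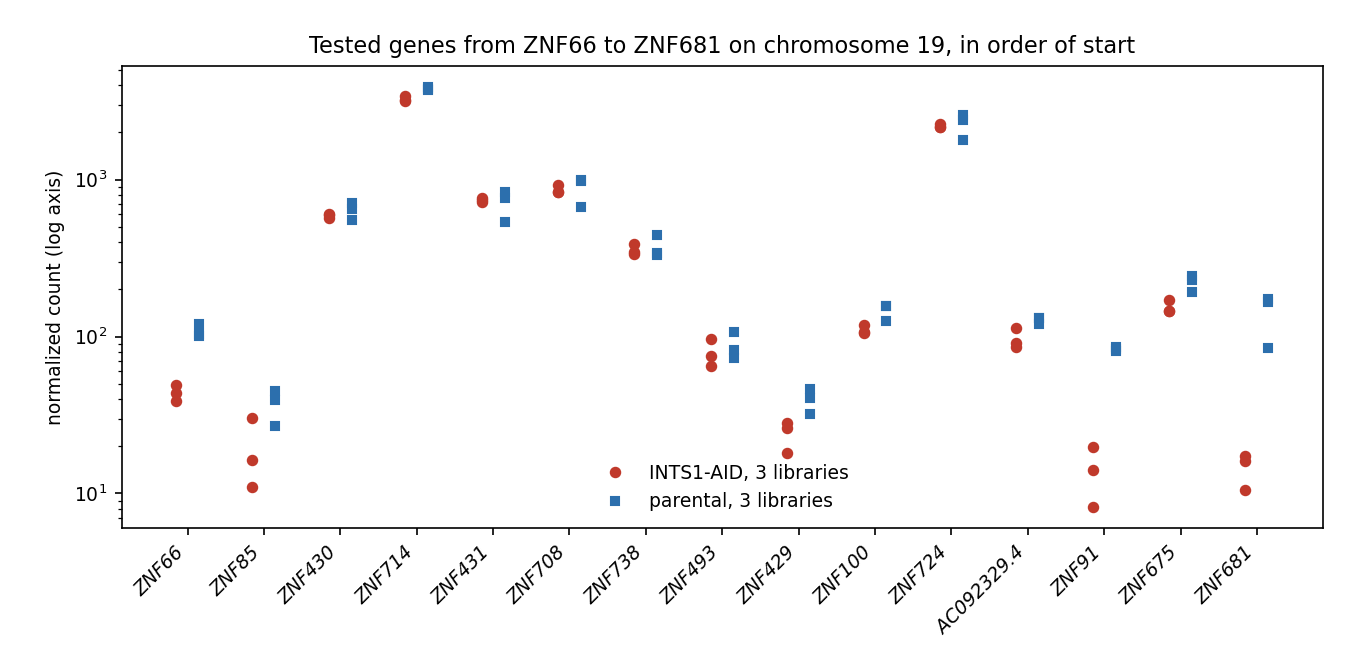
Normalized counts on a log axis of the 15 tested genes from ZNF66 to ZNF681 on chromosome 19, in order of start, with the 3 INTS1-AID libraries (red circles) left of the 3 parental libraries (blue squares). ZNF66, ZNF91 and ZNF681 have groups far apart, and the genes between them have groups that lie closer or overlap.

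ROBO2 and EYA1 fell most after ZNF681 and ZNF91. ROBO2, a receptor for SLIT guidance proteins (ENSG00000185008), fell to 47.4, 48.4 and 65.6 normalized counts in INTS1-AID cells, against 201, 177 and 218 in parental cells (log2 change -1.88). It was the 1 of 45 axon guidance genes outside chromosome 5 that passed, beside 0.291% higher and 0.386% lower among all tested genes there. Without parental library 3 there were 3 higher and 9 lower, against 7.73% and 7.75% of all tested genes outside chromosome 5. EYA1, a coactivator and phosphatase of kidney and ear development, fell to 190.2, 163 and 163 in INTS1-AID cells, against 624, 577 and 475 in parental cells (log2 change -1.69). The groups lay far apart in both genes. GATA5 (-1.02) and BCL11B (-1.17) are further developmental transcription factors. The giant cadherin gene FAT3 fell by 1.56, the axonal kinesin gene KIF1A by 1.04 on the log2 scale, and the adhesion receptor gene ADGRB1 fell too. Other falls were in ABCB6, a porphyrin transporter (-1.60), LOXL1, which crosslinks elastin (-1.58), ZC3H12B (-1.21) and ZNF329 (-1.10). With parental library 3 left out these 11 had log2 changes of -0.82 (ADGRB1) to -1.81 (ROBO2).

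**Figure D5:**
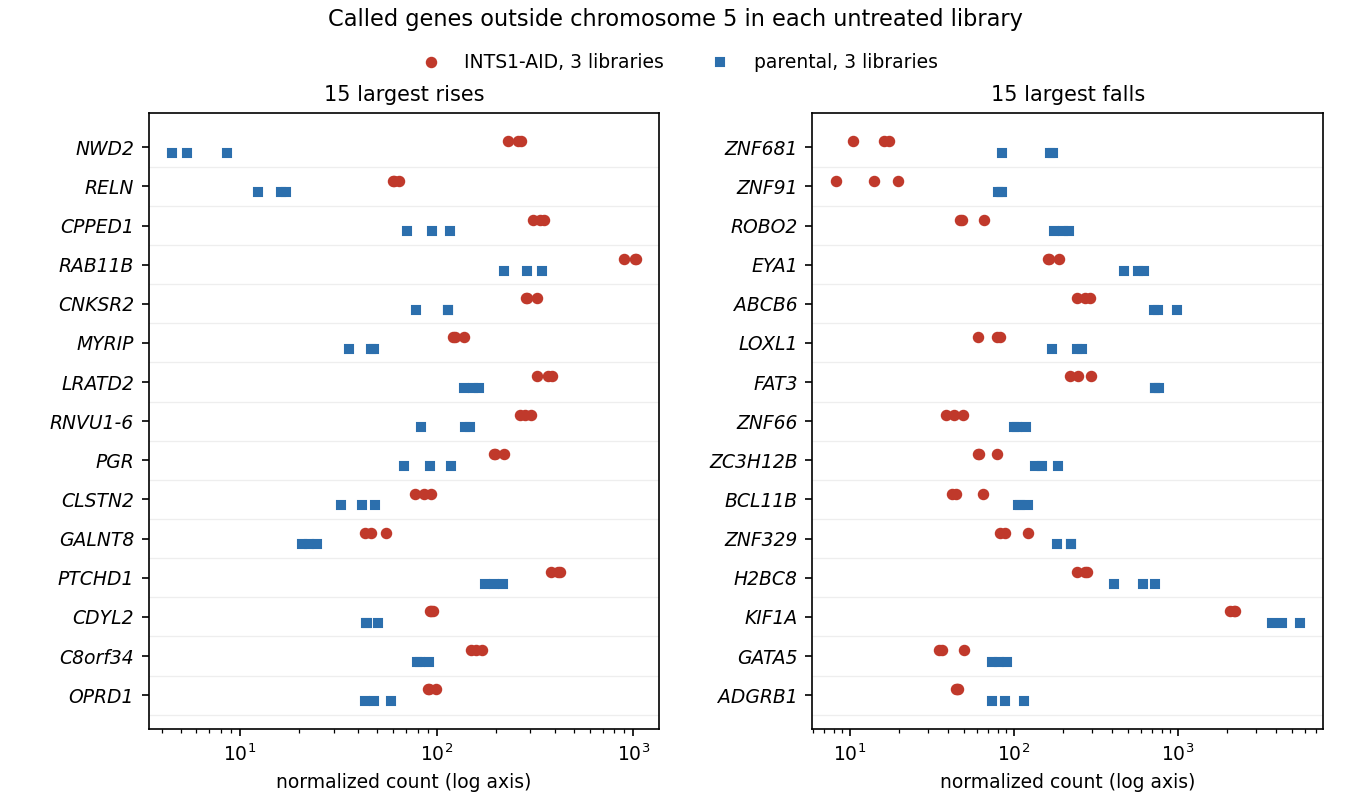
Normalized counts on a log axis of the 15 largest rises (left) and 15 largest falls (right) among called genes outside chromosome 5, 1 gene a line, with the 3 INTS1-AID libraries (red circles) above the 3 parental libraries (blue squares). In each gene the groups do not overlap, and NWD2 and ZNF681 are the furthest apart.

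The genes next to the 30 largest changes, 59 in number, had a median log2 change of -0.02 with limma and edgeR calling 0 of them. Of the 59, 12 had an unadjusted p under 0.05 and DESeq2 called 4. Without parental library 3, 15 were called, against 18.3% of all tested genes. Where neighbours did move, H2BC8 is an example. This histone H2B gene fell to 245, 280.3 and 274 normalized counts in INTS1-AID cells, against 616, 725 and 411 in parental cells (log2 change -1.09, -1.33 without parental library 3). Its divergent neighbour H2AC8 was at 465, 441 and 498 in INTS1-AID cells and at 915, 1077 and 611 in parental cells (log2 change -0.85, limma adjusted p = 0.075, and -1.09 with an adjusted p of 1.83e-07 without parental library 3). Of 48 replication-dependent histone genes, H2BC15 rose (0.41) and H2BC8 fell, beside 0.291% and 0.386% of all tested genes outside chromosome 5. Without parental library 3, 16 rose and 2 fell, against 7.73% and 7.75% of all tested genes outside chromosome 5. CNKSR2 and PTCHD1, with 2 tested genes between them, both rose on the X chromosome.

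Small nuclear RNA genes bear on Integrator, which forms the 3′ ends of these RNAs. INTS1 itself had 4143, 4003 and 3720.5 normalized counts in INTS1-AID cells, against 5186, 4019 and 7384 in parental cells. The groups overlapped, and limma did not call INTS1 (log2 change -0.44, adjusted p = 0.298; -0.21 with an adjusted p of 0.217 without parental library 3). Of 20 Integrator subunit genes, limma called 0, with 0 at an unadjusted p under 0.05 and 0 by edgeR and DESeq2. Without parental library 3 limma called 3 of them lower, against 7.75% of all tested genes outside chromosome 5. Of 21 tested U1 genes and variants, 2 rose, against 0.291% of genes outside chromosome 5. All 21 had a log2 change above 0, with a median of 0.71. With parental library 3 left out, 12 rose, against 7.73%, and the median was 0.45. The U1 set is not among the gene lists and is to be read as chosen after values were seen. It holds RNVU1-6, which is also among the 15 largest rises outside chromosome 5. Its counts beside these backgrounds are therefore a description and not a test of the set.

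The 2 that rose were RNVU1-6 (chr1:146052081-146052244) and the pseudogene RNU1-85P (chr17:58679527-58679690), both on the minus strand. RNVU1-6 had 282, 302 and 266 normalized counts in INTS1-AID cells, against 148, 139.5 and 83.3 in parental cells (log2 change 1.23, limma adjusted p = 0.034, and 0.97 without parental library 3). RNU1-85P had 395, 395 and 437 in INTS1-AID cells, against 254, 246 and 180.0 in parental cells (log2 change 0.86, limma adjusted p = 0.0308, and 0.71 without parental library 3). Their transcripts in GENCODE v29 are shown to tell them from the canonical U1 gene RNU1-1 (chr1:16514122-16514285, minus strand), with which they might share reads. Capitals mark bases that differ from RNU1-1 in a global alignment.
RNU1-1: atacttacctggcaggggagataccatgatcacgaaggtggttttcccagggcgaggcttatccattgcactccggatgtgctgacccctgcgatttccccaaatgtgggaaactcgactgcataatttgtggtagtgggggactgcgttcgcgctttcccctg
RNVU1-6: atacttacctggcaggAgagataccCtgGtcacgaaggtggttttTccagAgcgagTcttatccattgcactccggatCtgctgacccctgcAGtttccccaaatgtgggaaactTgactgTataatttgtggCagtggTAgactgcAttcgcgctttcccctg
RNU1-85P: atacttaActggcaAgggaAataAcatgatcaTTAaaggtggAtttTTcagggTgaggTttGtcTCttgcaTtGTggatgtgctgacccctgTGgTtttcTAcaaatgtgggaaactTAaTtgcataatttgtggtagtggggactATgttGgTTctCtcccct
RNVU1-6 is identical to RNU1-1 at 149 of 164 positions, and RNU1-85P at 132 of 166 alignment columns. RNU1-1 had 46.6, 48.4 and 55.1 normalized counts in INTS1-AID cells, against 47.3, 46.5 and 32.6 in parental cells, with groups that overlap (log2 change 0.26, limma adjusted p = 0.511). Of the 20 tested U1 genes with a transcript there, 6, RNU1-1 included, have the same sequence, and reads of U1 itself cannot be assigned among them.

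The integrated stress response is the response that the wider study asks about. Of 39 list members outside chromosome 5, 2 rose, against a background of 0.291%, with 9 higher at an unadjusted p under 0.05, 2 by edgeR and 6 by DESeq2. They were ATF4, the transcription factor of the response, and its target ASNS, asparagine synthetase. ATF4 had 19837, 20255 and 21294 normalized counts in INTS1-AID cells, against 15672, 16570.0 and 16804 in parental cells (log2 change 0.32, limma adjusted p = 0.0393). ASNS had 5094, 5267 and 5185 in INTS1-AID cells, against 3644, 3882 and 3298 in parental cells (0.53, limma adjusted p = 0.0214). Both kept their call without parental library 3, at 0.34 and 0.46, where 20 of the 39 rose and 0 fell, against 7.73% and 7.75%, with a median of 0.13 with and without that library. The list was chosen with earlier results of these data known and is not independent evidence of its direction. SLC7A11, a cystine transporter (0.79, limma adjusted p = 0.0567), and MTHFD2 (0.41, limma adjusted p = 0.068) were not called by limma or edgeR, and were by DESeq2 and by limma without parental library 3. DDIT3 was at -0.14 (limma adjusted p = 0.595). On chromosome 5 the list's STC2 rose by 0.46. Of 15 eIF2α kinase and RNA sensor genes limma called 0, with 2 at an unadjusted p under 0.05, 0 by edgeR and 0 by DESeq2, and EIF2AK2, which encodes the RNA-sensing kinase PKR, was at -0.03 on the log2 scale.

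The other lists held few calls outside chromosome 5, beside a background of 0.291% higher and 0.386% lower. Without parental library 3 that background was 7.73% higher and 7.75% lower. The cholesterol exporter gene ABCA1 rose (0.78) and ABCB6 fell among 26 ABC transporters (2 and 2 without parental library 3). CLSTN2 rose and FAT3 fell among 23 cadherin genes (2 rose and 6 fell without parental library 3), and LOXL1 fell among 32 matrix genes, of which 1 rose and 10 fell without parental library 3. Among 30 kidney development genes EYA1 fell and CITED1, a transcriptional coregulator, rose (0.48 with and without parental library 3, where 1 rose and 5 fell in that list). Of 14 interferon response genes limma called 0, with 5 at an unadjusted p under 0.05, 0 by edgeR and 2 by DESeq2; 4 rose and 0 fell without parental library 3. The checkpoint kinase gene CHEK1 fell to 1617, 1687 and 1629 normalized counts in INTS1-AID cells, against 2247, 2447 and 2341 in parental cells (log2 change -0.51, limma adjusted p = 0.0201), the 1 call among 50 repair genes (2 higher and 3 lower without parental library 3). CCND2, a cyclin of G1, rose by 0.34 and is the 1 call among 40 cyclin and kinase genes, but edgeR called 0 of these; 4 rose and 1 fell without parental library 3. Of 13 identity genes outside chromosome 5, the neurofilament gene NEFL was the 1 called by limma (0.43). Log2 changes over the 13 ran from -1.22 to 0.43. At an unadjusted p under 0.05, 4 were higher and 3 lower, and DESeq2 called 2 higher and 3 lower. Without parental library 3, 4 of these genes rose and 2 fell. CHEK1, CCND2, NEFL and ABCA1 kept their direction and call without parental library 3, with log2 changes of -0.51, 0.35, 0.48 and 0.83.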

How the data were processed

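Per the labels' protocols, RNA depleted of ribosomal RNA was sequenced with a stranded dUTP kit. STAR 2.7.3a, DESeq2 and hg38 are named in the submitters' processing notes; how reads were counted, and on which annotation and strand, is not given in the sources. The deposited values are a signal, counts per gene divided by 1 factor for each library by the authors, for 14538 genes. The deposited table's log2 fold changes and adjusted p-values are the authors' own; another assay stands in its headers, but these counts give its fold changes. Whole reads were recovered for 100% of values within a tolerance of 0.001 and ran from 26294938 to 39321998 per library; since the unit is no raw count, edgeR and DESeq2 are alternatives only.

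The filter was a mean normalized count of 10 or more. limma 3.58.1 (trend, robust, R 4.3.3) was fitted to log2(normalized count + 1), which understates the change of low genes, with Benjamini-Hochberg adjustment over all genes at 0.05. The fit was tested on simulated counts with the same dispersion for every gene, no GC trend and no library standing apart. It therefore cannot say how the fit behaves with a library such as parental library 3. The alternatives changed the pseudocount (0.1, 10) or the filter (none, or 50 or more), left out single libraries, blocked on replicate number, or used library totals, factors without chromosome 5, edgeR 4.0.16 with TMM, DESeq2 1.42.0, values with the GC trend of every library taken off by lowess (span 0.3), or an FDR of 0.01. Removal of the GC trend together with parental library 3 was chosen after seeing the data. Named genes are the 15 largest rises and 15 largest falls outside chromosome 5 among called genes without overlap, the 10 largest rises and every called fall on chromosome 5, INTS1, called members of each list, and chromosome 5 members of complexes; others are said to be chosen after their values were seen or are list members outside this rule. GC content came from GENCODE v29 (14523 genes). The members and lists were chosen with earlier results of these data known. Whether replicates came from separate cultures is not in the labels, and p-values reflect library spread that may be technical.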

Additional observations from a re-analysis of the deposited data

How the results depend on the processing

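The median log2 change of chromosome 5 kept its direction under all alternatives run and ranged from 0.46 to 0.54. Of 145 named genes, none changed direction under any of them. The count of called genes (295 in all, 209 on chromosome 5, 86 elsewhere) stayed within 1.5 times under both pseudocounts, both filters, library totals, factors without chromosome 5, and edgeR. Leaving out 1 library at a time gave 1 to 2432 genes in all, 0 to 467 on chromosome 5 and 1 to 1965 elsewhere, the highest without parental library 3. DESeq2 called 824, 365 and 459 in the same order; removal of the GC trend gave 1103, 380 and 723, and with parental library 3 also left out 2799, 471 and 2328. At an FDR of 0.01 there were 11, 4 and 7. The cause of these differences was not tested. With replicate number as a block there were 6, 1 and 5, but the numbers did not pair the libraries: deviations of same-numbered libraries correlated at -0.07, 0.00 and -0.11. With 3 libraries a group, precision is limited by the spread between libraries, and these fits with 1 library left out have 2 on that side.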
